A study of Mus musculus with 2 samples.

Results

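The regions described are single-exon antisense loci: stretches of the mouse genome where long reads formed transcript models with 1 exon on the strand opposite to a known gene. They were chosen by reads. Models of the authors' antisense class with 1 exon were taken from both libraries, models on the same strand that overlapped by 1 base or more were merged, and a locus was kept when it had 1 or more reads in each library. This left 2172 of the 9301 loci seen in either library. The 2172 loci ran from 1 to 12831 bases in length, so the shortest cannot be the full span of a long read. The models behind the 9301 loci numbered 6282 of 92223 in replicate 1 and 5373 of 73027 in replicate 2. Each locus is named below by the gene on the opposite strand.

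The RNA was total RNA of gastrocnemius, a calf muscle of mostly fast fibres, from male mice of the F1 hybrid strain B6CASTF1/J aged 10 days. The series held 1 group with 2 biological replicates and no treatment, mutant or control. The labels number the tissue samples separately but give them 1 donor entry, and p-values between the libraries cover the counting error of reads only, not the variation between animals or library preparations. Each library was made from 2 µg of RNA. Replicate 1 held 1145490 mouse reads and replicate 2 held 941841 mouse reads, beside ERCC spike-in RNA. All 6 fibre markers had reads, and their share of mouse reads was 16.2% in replicate 1 and 16.8% in replicate 2, while 8 fibroblast and matrix markers took 2.15% and 1.37%. Endothelial, Schwann cell, immune, red cell, adipocyte, tendon and satellite cell markers each took 0.171% or less in either library. In bulk tissue, fewer cells of a type and less RNA per cell cannot be told apart.

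Antisense transcripts are copied from the strand opposite to a gene, so their bases pair with those of the gene's own RNA. Some begin at a promoter of their own inside or beside the gene, and others come from a neighbouring gene whose transcription runs on across the border. Many are unspliced and stay in the nucleus, and some lower or raise the output of the gene they face. A polyadenylated transcript normally carries the signal AATAAA or a close variant shortly before its end.

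The ends of the loci are shown first, because a run of A followed many of them. Each line below gives 30 bases on the strand of the locus, written as DNA from 5′ to 3′, with the last base of the model at position 15. Capitals mark runs of 5 or more A. The sequences come from the GENCODE M21 transcripts of the opposite genes, reverse-complemented, on mm10. The first 5 ended at such a run, and the model end was the same base in both libraries. They lay at chr11:107211749-107211778 (plus strand) for Pitpnc1, chr10:120783300-120783329 (plus) for Msrb3, chr13:41637382-41637411 (minus) for Tmem170b, chr7:90131176-90131205 (minus) for Picalm and chr10:107483781-107483810 (plus) for Myf5.
Pitpnc1: ttaccacaccttaccAAAAAAAAAAAAAAA
Msrb3: ttgtgaactttggacAAAAAAAAAAAAAAA
Tmem170b: tcccttctttcaccAAAAAAAAAAAAAAAA
Picalm: tagtacggaaatacgAAAAAAAAAAAAAAA
Myf5: aagcaattggaagctAAAAAAAAAAAAAAA

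Other loci with the same end in both libraries had no such run there. These windows lay at chr2:26138369-26138398 (plus) for Tmem250-ps, chr1:36506687-36506716 (minus) for Cnnm4, chr14:34414472-34414501 (plus) for Bmpr1a and chr1:169692600-169692629 (minus) for Rgs5.
Tmem250-ps: tggagggtgggccctcacatgtccacaaag
Cnnm4: gtcatgcaggatatctacctgcaccccttc
Bmpr1a: atgctaatcccacccattccttgggtgaag
Rgs5: cttagactgacaatgacttggtaaatcttt

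The locus with the most reads over both libraries, opposite Klhl31, ended at different bases in the 2 libraries, at chr9:77655832-77655861 (minus) in replicate 1 and chr9:77656668-77656697 (minus) in replicate 2. The replicate 2 end was A-rich, with 14 A in the 20 bases past it, and the replicate 1 end had 5.
Klhl31 replicate 1: gttcagatactgaccggcacggaggacacc
Klhl31 replicate 2: gtgtgtaccaggcccatccagAAAAAAgga

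Single-exon antisense models held 16320 reads in replicate 1, or 1.42% of mouse reads (95% Wilson interval 1.40% to 1.45%), and 15055 reads in replicate 2, or 1.60% (1.57% to 1.62%). The share was lower in replicate 1 by Fisher's exact test, two-sided, with an adjusted p of 2.23e-24 over 9 read classes. The share of spliced antisense models was 0.0799% in replicate 1 and 0.0798% in replicate 2, and that of single-exon intergenic models 0.194% and 0.187%. Other classes differed by more points. Models with new combinations of known splice sites took 12.1% in replicate 1 and 5.88% in replicate 2, models with a new splice site 4.74% and 7.997%, and annotated transcripts 70.9% and 74.9%. The labels cite different versions of the pipeline document, 3.1 for replicate 1 and 3.0 for replicate 2, so document version and library cannot be told apart in any difference between the libraries. Intervals and limits cover counting error only.

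The loci with reads in both libraries held 11137 reads in replicate 1, 68.2% of the single-exon antisense reads, and 11340 reads in replicate 2, 75.3% of them. Most were sparse. At the border of the rule, 606 loci had 1 read in each library, and just outside it 3287 loci had 1 read in replicate 1 and 0 in replicate 2, while 2733 had 1 read in replicate 2 and 0 in replicate 1. The deepest locus left out had 49 reads, all in replicate 1. Levels of 10 or more reads were reached by 139 loci in each library, and 100 or more by 7 loci in replicate 1 and 8 in replicate 2. The 10 loci with the most reads carried 33.0% of the reads of all 2172 loci in replicate 1 and 37.3% in replicate 2. CPM below means reads per 1000000 mouse reads. With a limit of 3 reads, a locus at 0 could lie as high as 2.62 CPM in replicate 1, or 3.19 CPM in replicate 2.

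The locus with the highest mean level faced Klhl31, a kelch-like protein of striated muscle that serves as an adaptor for ubiquitin ligases. It spans chr9:77655847-77658186 on the minus strand and lies in full within the last exon of the gene, over part of its coding sequence. It had 1102 reads (962 CPM) in replicate 1 and 2094 reads (2223 CPM) in replicate 2, against 72 and 67 reads of Klhl31 itself. The locus therefore made up 93.9% of the reads of the pair in replicate 1 (92.3% to 95.1%) and 96.9% in replicate 2 (96.1% to 97.6%). It also held 9.89% of the reads of all 2172 loci in replicate 1 and 18.5% in replicate 2.

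The next locus lay in ribosomal DNA on chromosome 17, opposite the lincRNA gene Gm26917 (chr17:39843013-39846245, minus strand). It had 1272 reads in replicate 1 and 565 reads in replicate 2, and began 108 bases past the end of CT010467.1, an annotated rRNA gene on its own strand. A locus opposite CT010467.1 itself (chr17:39846353-39846958, plus strand) had 87 reads in replicate 1 and 13 in replicate 2, while CT010467.1 was at 0 reads in both. That locus overlapped Gm42418, an annotated gene on its own strand. Ribosomal DNA is repeated in the genome and how reads were placed among its copies is not stated in the sources used, so these levels are uncertain.

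Among the 15 highest loci, 6 ran, as merged, from the annotated 3′ end of the opposite gene back into its last exon. Opposite Sept2, a septin that builds cytoskeletal filaments, 331 and 350 reads were found in replicates 1 and 2 (chr1:93507713-93509733, minus), where Sept2 had 6 and 5 reads. Pitpnc1, a phosphatidylinositol transfer protein, faced 129 reads in replicate 1 and 179 in replicate 2 (chr11:107207892-107211763, plus), which were 77.7% and 88.2% of the pair. The lincRNA gene 2900097C17Rik faced 152 and 150 reads (chr2:156388065-156391514, plus), Tmem250-ps 78 and 160 reads (chr2:26136814-26138383, plus), and Cdv3 85 and 94 reads (chr9:103353094-103355313, plus). Msrb3, which repairs oxidised methionine, faced 56 reads in replicate 1 and 63 in replicate 2 (chr10:120781096-120783314, plus). The model with most reads began at the 3′ end in both libraries opposite Sept2, Pitpnc1 and Tmem250-ps. It did so only in replicate 1 opposite 2900097C17Rik and Msrb3, and only in replicate 2 opposite Cdv3.

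A further 6 of the 15, beside Klhl31, lay in full within exons of the opposite gene and reached neither of its annotated ends. The loci above at a 3′ end, and that opposite Gm26917, also lay in full within exons. Nfia, a transcription factor of the nuclear factor I family, faced a pair of loci in its last exon. The deeper one had 164 and 176 reads and the other 44 and 68 reads, where Nfia had 14 and 10. Tmem170b faced 55 reads in replicate 1 and 58 in replicate 2, against 9 and 4 reads of the gene. The cytoplasmic actin gene Actb faced a locus of only 421 bases with 83 and 91 reads, and the phosphatase gene Ptp4a2 one of 701 bases with 75 and 83 reads. In both of these pairs the gene's own reads outnumbered the locus, with 465 and 272 reads for Actb and 508 and 380 for Ptp4a2. The locus opposite Sept11 (60 and 77 reads) reached from an exon into an intron.

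**Figure D1:**
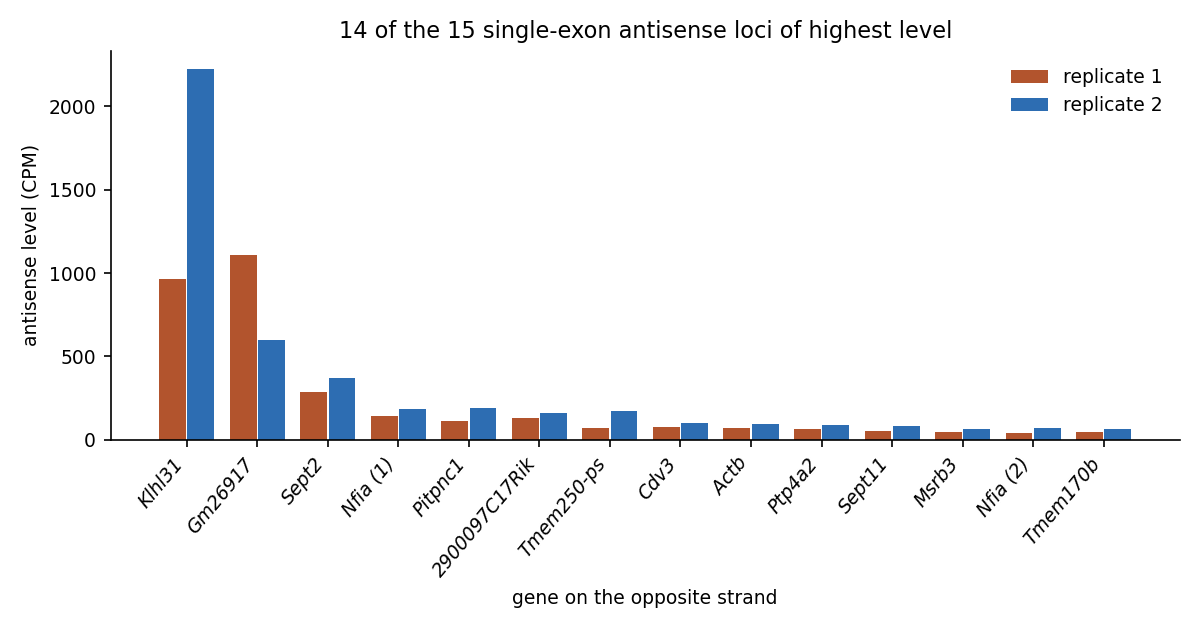
Level of 14 of the 15 highest single-exon antisense loci, in antisense reads per 1000000 mouse reads (CPM), by the gene on the opposite strand, 1 bar per library and no error bars. The locus opposite Klhl31 stood at 962 CPM in replicate 1, against 2223 CPM in replicate 2, and Gm26917 was the 1 locus of these that was higher in replicate 1.

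Levels in the libraries went together across loci, with Pearson's r of 0.71 on log2 CPM and Spearman's rho of 0.52 over 2172 loci, where both libraries share the gene's sequence and the rule's demand for reads in each. Between the libraries, 7676 features (genes and loci with 20 or more reads in sum) entered a 2-sided test, exact and binomial, conditional on each feature's sum. Calls needed a difference of 2-fold or more and an adjusted p below 0.05. Of all features 3.00% were called, 1.98% higher in replicate 1 and 1.02% lower. Of the loci, 128 had enough reads, 2044 had too few, and 14 (10.9% of 128) were called, 2 higher in replicate 1 and 12 lower. The rule used reads in each library, so these counts are a description. The median log2 ratio of replicate 1 over replicate 2 was -0.27 over the 128 loci and 0.00 over all features.

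All bases of the 12 loci that were lower in replicate 1 lay in exons of the opposite gene, as did those of 76 of the 128 loci tested (59.4%). By position 9 of the 12 lay short of the gene's annotated ends and 3 reached the annotated 3′ end. The largest in reads was Klhl31, with a log2 ratio of -1.21 (exact binomial test, adjusted p = 4.75e-116), followed by Tmem250-ps at -1.31 (exact test, adjusted p = 8.04e-10). By fold the first were Msi2, an RNA-binding protein, with 6 reads in replicate 1 and 25 in replicate 2, Celf1, a regulator of splicing in muscle, with 5 and 20 reads, and Gsk3b, the glycogen synthase kinase, with 15 and 55 reads. They were followed by Bmpr1a, a receptor for bone morphogenetic proteins, with 12 and 41 reads, and the kinase gene Hipk3 with 8 and 26 reads. The other 5 loci, named after their values were seen, faced Qk (18 and 57 reads), Klhl24 (32 and 56), Mcu (30 and 55), Klhl9 (19 and 37) and Irs1 (10 and 24).

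The loci higher in replicate 1 were CT010467.1, with a log2 ratio of 2.41, and Usp15, a deubiquitinating enzyme. Each overlapped an annotated gene on its own strand, Gm42418 for the CT010467.1 locus and Gm4129 for the Usp15 locus. Usp15 faced 19 reads in replicate 1 and 3 in replicate 2 from a locus within an intron (log2 ratio 2.20, exact binomial test, adjusted p = 0.0299). The locus opposite Gm26917 had a log2 ratio of 0.89 and was not called, being under the 2-fold limit. These tests compare 2 libraries, not conditions.

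**Figure D2:**
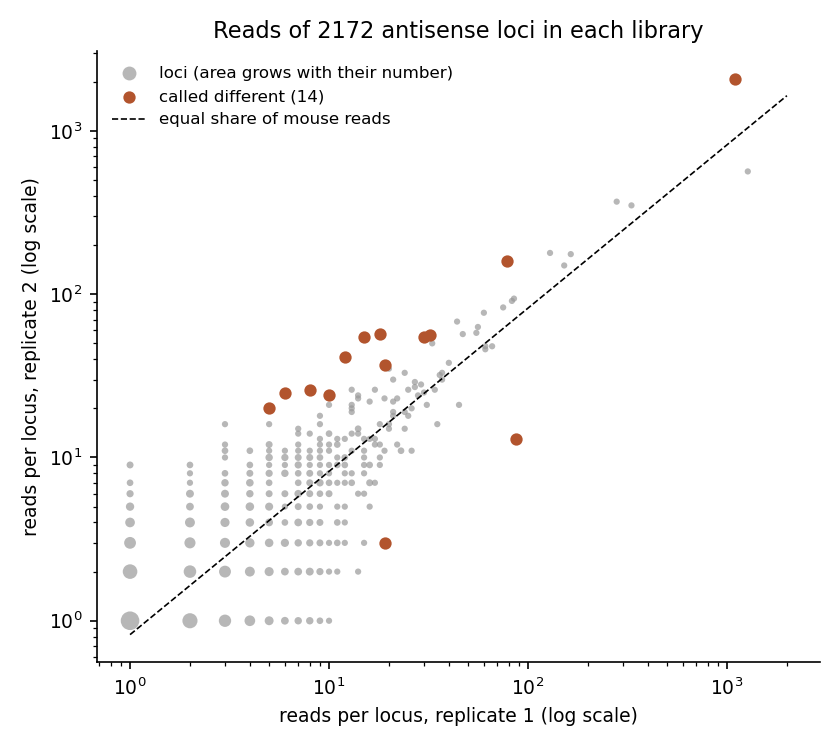
Reads of each locus in replicate 1 (x axis) and replicate 2 (y axis), on log scales, for 2172 loci, with larger grey points where more loci share the same counts, orange points for the 14 called loci and a dashed line at an equal share of mouse reads. All but 2 of the orange points lie above the line, and the median locus had 2 reads in each library.

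Most loci lay inside the opposite gene. Within an intron only were 818 loci (37.7%), 685 (31.5%) touched an exon and an intron, 342 (15.7%) lay in exons only, 178 (8.20%) spanned the gene's 3′ end, 130 (5.99%) spanned its 5′ end and 8 spanned the whole gene. A further 10 faced a gene that is not annotated, and 1 lay outside the annotated gene. Spanning means that the locus included the annotated end base, so a locus that only began or stopped there counts. The locus opposite Pitpnc1 began at the 3′ end base in both libraries, and that opposite Gm26917 stopped at the 5′ end base. The locus opposite Msrb3 began at the 3′ end base in replicate 1, while its replicate 2 model began inside the gene. Loci that include an end are left out of the exons-only group. With them, 439 loci (20.2%) lay in full within opposite exons. The opposite gene was protein-coding for 2083 loci (95.9%). Loci seen in 1 library only lay more often in introns alone, 49.7% of 4008 in replicate 1 and 50.2% of 3121 in replicate 2. They less often spanned the 3′ end, at 3.92% and 3.68%. The read rule set these groups and loci are not replicates, so the shares are a description. Of loci in 1 library only, 82.0% in replicate 1 and 87.6% in replicate 2 had 1 read. Loci with reads in both libraries joined 2 or more models. Their median length was 2367.5 bases, against 1767.5 in replicate 1 only and 1337 in replicate 2 only. The part of depth and length in the difference was not tested.

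Reads were spread over these positions unlike the loci were. Loci within exons only held 31.3% of the reads in replicate 1 and 44.0% in replicate 2, and those spanning the 3′ end held 17.4% and 18.1%, while loci within an intron only held 18.3% and 15.1%. Klhl31 and Gm26917 weigh on these shares. Without that pair, loci within exons only held 27.3% in replicate 1 and 33.4% in replicate 2, loci spanning the 3′ end 22.1% and 23.7%, and loci within introns only 23.3% and 19.7%.

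Loci at the 5′ side of genes had few reads once Gm26917 is set aside, with 414 reads over 129 loci in replicate 1 and 328 in replicate 2. Klf9, a zinc-finger transcription factor induced by glucocorticoids, faced the next deepest, with 23 and 11 reads (chr19:23140108-23142259, minus), a locus that ran on beyond the start of the gene. Iws1, which acts with RNA polymerase II in elongation, faced 11 reads in replicate 1 and 12 in replicate 2. Uqcrc1 and Cox5a, subunits of respiratory complexes, faced 4 and 4 reads and 4 and 3 reads across their 5′ ends. Of the loci that covered a whole gene once models were merged, the one over Ubald1 had 8 and 2 reads and the one over Cited4 had 3 and 3. Over Ubald1 (chr16:4874778-4880315), the model with most reads ran chr16:4874149-4877252 in replicate 1 and chr16:4876421-4880315 in replicate 2. Neither covered the gene alone. Over Cited4, the model of replicate 1 covered the gene, and that of replicate 2 reached only the start base of the gene. Among loci that touched both an exon and an intron, Picalm, a clathrin assembly protein, faced 24 and 19 reads and Chtop, a chromatin target of arginine methylation, 21 and 19. Trdn, the triadin of the calcium release complex, faced 10 reads in replicate 1 and 6 in replicate 2, and its locus shared under 1% of its bases with an exon.

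**Figure D3:**
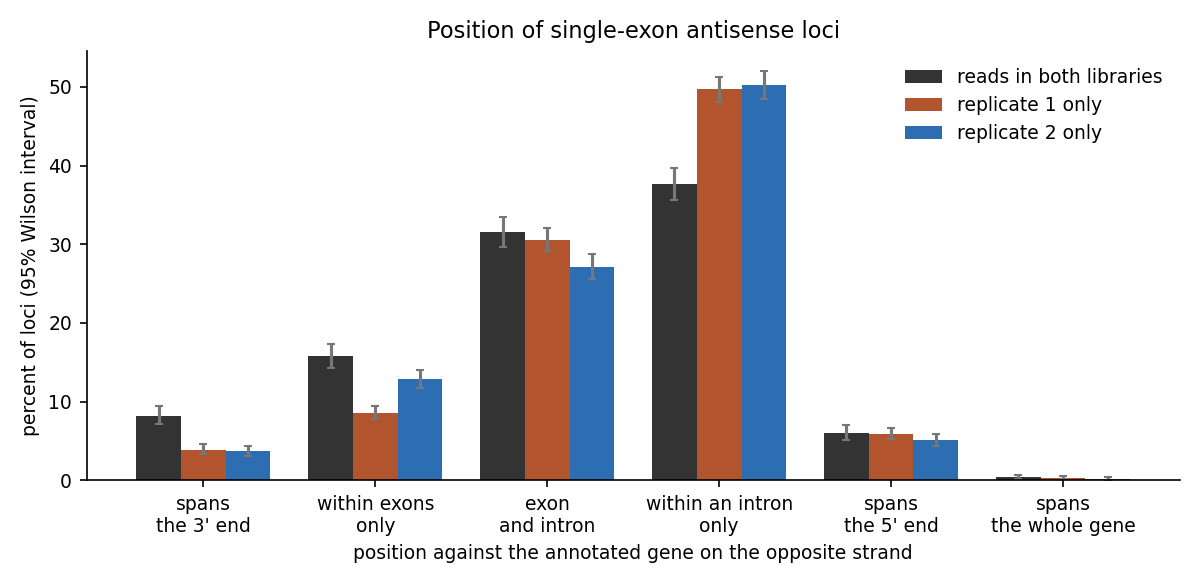
Percent of single-exon antisense loci in each position against the annotated gene on the opposite strand, for loci with reads in both libraries (black, 2172 loci), in replicate 1 only (orange, 4008) and in replicate 2 only (blue, 3121), with 95% Wilson intervals. Loci spanning the 3′ end made up 8.20% of the black group and 3.92% and 3.68% of the other groups. Loci within introns made up 37.7%, 49.7% and 50.2%.

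At the opposite 3′ end, 206 loci (9.48%, interval 8.32% to 10.8%) covered the end of the gene or began within 100 bases of it, against 4.84% of loci in replicate 1 only and 4.55% in replicate 2 only. The merged locus began exactly at an annotated transcript 3′ end of the opposite gene for 211 loci (9.71%). A model of 1 library can set that start. Exons of the opposite gene were shared by 1344 loci (61.9%), against 49.4% of loci in replicate 1 only and 48.9% in replicate 2 only, and its last exon was touched by 831 (38.3%). Coding sequence was touched by 727 of the 2083 loci opposite protein-coding genes (34.9%).

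Few loci began close behind a gene on their own strand. Loci within 1 kb past the end of such a gene numbered 59 (2.72%), and 365 (16.8%) lay within 10 kb. The median distance to the nearest such gene was 43107 bases. The span of an annotated gene on their own strand was overlapped by 32 loci (1.47%). As for distance, the locus opposite 2900097C17Rik began 843 bases past Rpl21-ps9, within 1 kb. That opposite Msrb3 began 2210 bases past 4921513I03Rik, within 10 kb. Neither overlapped an annotated gene on its own strand. Whether the reads of a locus continued from the upstream gene was not tested.

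Protein-coding genes that faced a locus had longer last exons, with a median of 2614 bases over 1725 genes, against 1851 bases over all 13456 protein-coding genes with reads, which include them. A locus was found opposite 3.99% of genes whose longest last exon was under 500 bases and 25.2% of genes at 4000 bases or more. It also became more frequent with the level of the gene, at 4.09% of genes below 1 CPM and 30.3% of those at 1000 CPM or more. Among kept loci, the amount of antisense reads hardly followed the level of the gene. Genes without a kept locus were left out there. Spearman's rho between locus reads and gene reads was 0.053 in replicate 1 and 0.056 in replicate 2 over 2162 loci. The loci share depth and library. These are correlations across loci, which are not independent replicates.

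Over the pairs of a locus kept by the rule and its annotated gene, antisense reads made up 3.43% of the sum in replicate 1. That was 11111 locus reads beside 312945 gene reads. In replicate 2 they made up 4.89%, with 11322 and 220223. Over the pairs of any locus of either library the shares were 2.73% in replicate 1 and 3.23% in replicate 2. Without Klhl31 and Gm26917 the shares of the kept pairs were 2.72% in replicate 1 and 3.79% in replicate 2. In 185 loci (8.52%) the locus had more reads than its gene in both libraries, and in 69 (3.18%) the gene had 0 reads in both. Cnnm4, a magnesium transporter gene, had 1 read in each library and faced 33 reads in replicate 1 and 50 in replicate 2. The lincRNA gene Gm20300 likewise had 1 read in each, and the locus spanning it had 45 and 21.

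The antisense share was tested in 3737 pairs with 20 or more summed reads in each library by Fisher's exact test. Of all pairs 0.107% (4) were called at an adjusted p under 0.05 and 10 points, and 64 had an unadjusted p under 0.05. The loci with reads in both libraries made up 1070 of these pairs and 3 of the calls, all lower in replicate 1. Bmpr1a had an antisense share of 23.1% in replicate 1 and 64.1% in replicate 2 (Fisher's exact test, adjusted p = 0.00891). Hipk3 had 8.33% and 35.6% (exact test, adjusted p = 0.00891). Qk, an RNA-binding protein, had 18 antisense and 196 gene reads in replicate 1 and 57 and 165 in replicate 2 (exact test, adjusted p = 0.00314). The fourth pair, Atcayos, had its 49 antisense reads in replicate 1 and 0 in replicate 2, and so is not among the 2172 loci.

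**Figure D4:**
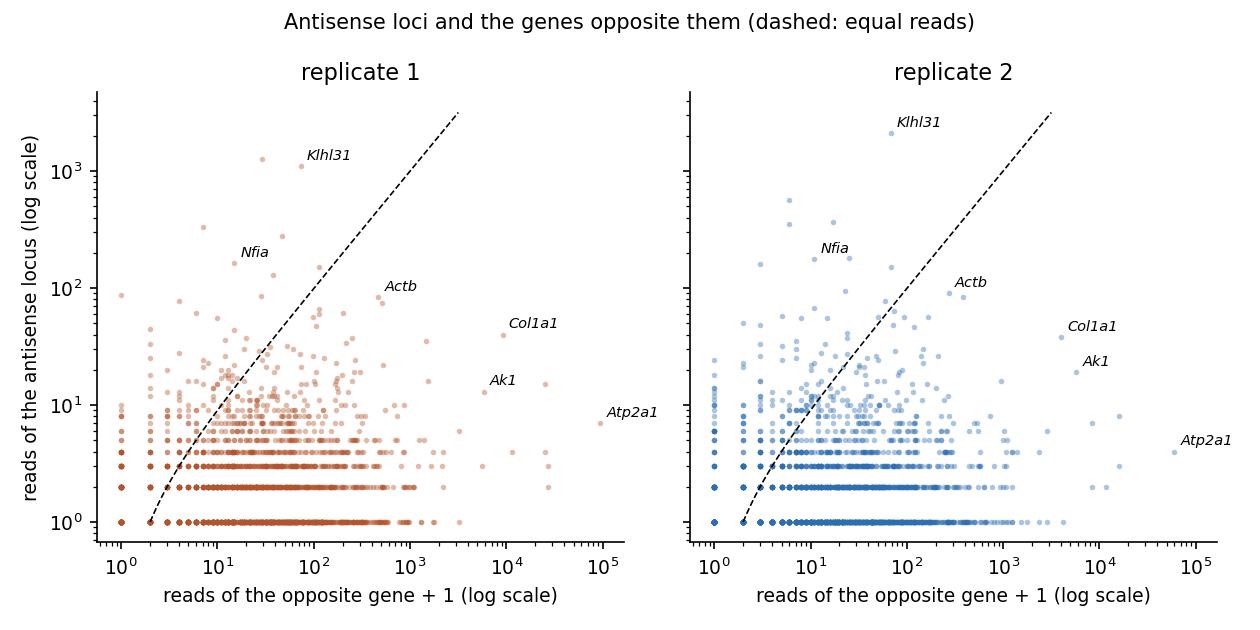
Reads of each antisense locus (y axis) against reads of the gene on the opposite strand plus 1 (x axis), on log scales, for replicate 1 (left) and replicate 2 (right). Points above the dashed line, such as Klhl31 and Nfia, had more reads from the locus than from the gene, and Atp2a1, the gene with the most reads of its own among these, faced 7 and 4.

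Next to their own reads, sarcomere genes faced few antisense reads. Of 36 sarcomere genes, all with reads, 11 (30.6%) faced 1 or more loci, as did 11.0% of all annotated genes with reads. These shares were not matched for gene level. Of protein-coding genes with reads, 21.1% of those from 100 to under 1000 CPM faced a locus, and 30.3% of those at 1000 CPM or more. The 23 loci held 95 reads in replicate 1 and 82 in replicate 2, or 0.0400% and 0.0433% of the reads of these genes and loci. Neb, the gene of the thin-filament ruler nebulin, faced a locus of 15 and 9 reads, Tpm1, a tropomyosin, one of 15 and 8, and Ldb3, a Z-disc protein, one of 7 and 6. Ttn, the gene of titin, faced 4 loci with 11 and 13 reads in sum. Opposite Myh4, the IIB myosin heavy chain with 26791 and 8355 reads, loci of 2 and 7 reads and of 3 and 2 reads were found.

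Calcium-handling genes faced loci in 6 of 16 cases, with 64 reads in replicate 1 and 33 in replicate 2. Pvalb, the calcium buffer parvalbumin of fast fibres, had 35 and 16 of them, from a locus within an intron that was 2.36% of the pair in replicate 1 and 1.66% in replicate 2. Atp2a1, the calcium pump, had 94265 and 59968 reads of its own and faced 7 and 4. Among 17 glycolysis and energy genes 5 faced a locus, the deepest at the 3′ end of Ak1, adenylate kinase, with 13 and 19 reads. In oxidative phosphorylation 14 of 99 genes with reads did, with at most 5 reads per library opposite the deepest, Ndufs6. Of 89 cytosolic ribosomal protein genes 2 did, Rps3 and Rpl26, with 1 or 2 reads each.

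Markers of other cells in the muscle faced loci as well. Col1a1, the collagen of fibroblasts, faced 40 reads in replicate 1 and 38 in replicate 2 from its 3′ end (chr11:94951656-94953042, minus), 0.437% and 0.948% of the pair. Rgs5, a regulator of G-protein signalling found in pericytes, faced 13 and 26 reads, and Pmp22, a myelin protein gene, faced 2 loci with 3 and 5 reads in sum. Of the satellite cell markers, 2 of 3 faced a locus. Myf5, which starts the myogenic programme, faced 8 reads in each library against 1 and 4 of its own, and Myod1 faced 3 in each across its 5′ end, against 44 and 53. Of the immune and the red cell markers 0 of 5 each faced a locus, and of the adipocyte and the tendon markers 0 of 3 each. Of all annotated genes with reads 11.0% did, and lists this short cannot show a difference between cell types.

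Several loci could face 1 gene. The 2172 loci lay opposite 1795 annotated genes, and 284 of these faced 2 or more. Kcnma1, a calcium-gated potassium channel, faced the most, 9 loci with 29 reads in replicate 1 and 25 in replicate 2, where the gene had 12 and 19. Nfia faced 5 loci with 216 and 249 reads, and Zbtb20, a transcriptional repressor, 5 with 42 and 45. The deepest of the Zbtb20 loci lay within an intron and had 27 reads in each library. Intronic loci opposite Camk2b, a calmodulin-dependent kinase, had 19 and 23 reads. Loci that share a gene are not independent of each other.

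The 3′ ends of the loci recurred to the base more often than their 5′ starts. The end of the model with most reads was identical in both libraries for 1414 loci (65.1%) and the start for 574 (26.4%). Starts that recurred lay at an annotated exon boundary in 61.0% of cases and ends in 30.3%. Whether the model builder moved ends to annotated boundaries was not tested.

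The Pitpnc1, Msrb3, Tmem170b, Picalm and Myf5 windows printed above belonged to a large group. Annotated exons covered the bases after the end for 687 loci, and in 285 of these (41.5%, interval 37.9% to 45.2%) 12 or more of the next 20 bases were A on the strand of the locus. Before the start, 12 of 657 loci (1.83%) had as many, and of all 20-base windows on the antisense strand of the opposite transcripts 1.72% did. In 69 loci all 20 bases were A. Of the loci with 10 or more reads in each library, 43 of 71 (60.6%) ended before an A-rich stretch. For Ptp4a2 in replicate 1 an A run lay just inside the model, up to its end, and 4 of the next 20 bases were A. Whether reads of these loci began at such stretches was not tested.

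**Figure D5:**
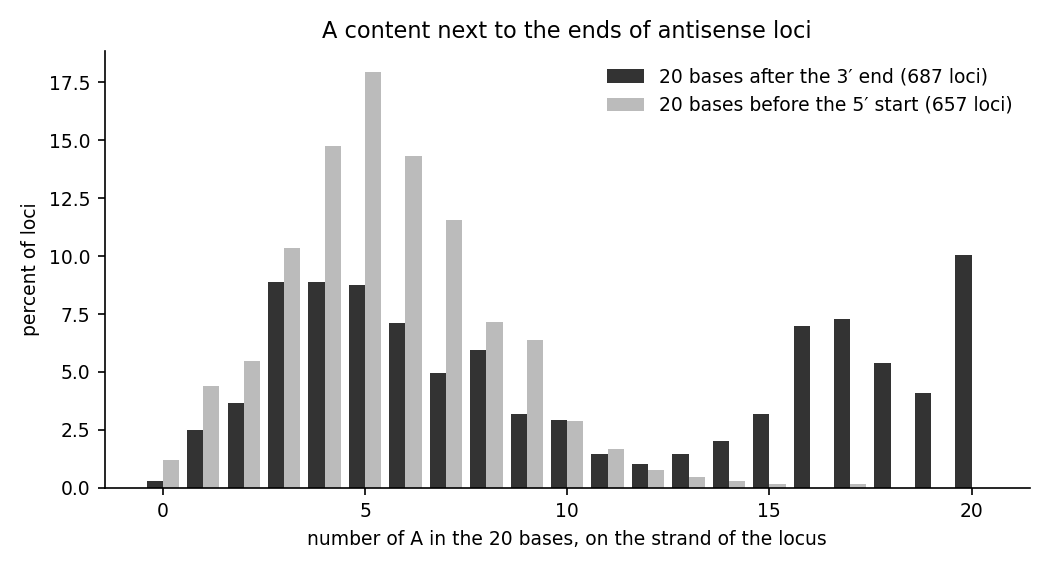
Percent of loci by the number of A in the 20 bases after the 3′ end (black, 687 loci) and before the 5′ start (grey, 657 loci), on the strand of the locus, where annotated exons cover those bases. The black bars form a second group at 15 to 20 A, with 10.0% of loci at 20, where no grey bar exceeds 0.152%.

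A polyadenylation signal was rare at these ends. AATAAA or ATTAAA, searched on the strand of the locus only, lay in the last 50 bases of 55 of 657 loci (8.37%, interval 6.49% to 10.7%), against 4.63% of all 50-base windows on the antisense strand of the opposite transcripts. Annotated spliced transcripts with reads held it in 69.9% of cases. Of the loci with 10 or more reads in each library, 1 of 74 held it. A match is a description of the letters and not a site of cleavage. Loci with an A-rich end were shorter than the other covered loci, with a median of 1627 bases against 2338, spanned the opposite 3′ end in 25.6% of cases against 16.4%, and had a median of 3 reads per library against 2.

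The ERCC spike-ins, synthetic RNAs of known strand, were read in the same libraries. All had reads on 1 strand only, which was the annotated strand for 51 in replicate 1 and 48 in replicate 2. The other 4 spike-ins in replicate 1 and 5 in replicate 2 had reads only on the strand opposite to their annotation. These held 231 of 26923 spike-in reads in replicate 1 (0.858%) and 162 of 15688 in replicate 2 (1.03%), and 0 spike-ins had reads on both strands.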

How the data were processed

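Long reads of total RNA from 2 libraries were used. The authors deposited raw counts, as reads per transcript model with 1 read or more, with no normalization, per the file headers. Models were made from mm10 alignments with GENCODE M21 and carry TALON classes, per the deposited descriptions. The aligner is not given in the sources used here, nor are tool versions. Loci were placed on GENCODE M21 genes of the same build. CPM is reads per 1000000 mouse reads and leaves out spike-ins. Each long read was counted once whatever its length, so CPM was not divided by length. Whether several reads came from the same RNA molecule was not tested. Features with 20 or more reads in sum were tested by an exact conditional binomial test, and antisense shares of pairs by Fisher's exact test, with the Benjamini-Hochberg adjustment over all features or pairs. Both tests were checked on simulated data. Shares have 95% Wilson intervals.

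No genome sequence was used, so ends were read from GENCODE M21 transcripts where annotated exons cover them. This departs from the planned search, which needed a genome. The members and lists were chosen with earlier results of these data known. Loci were named by rule: the 15 highest by mean CPM, 3 per position, up to 5 called per direction, the 5 highest antisense shares, and up to 3 per gene list. An item that this rule takes is not reported here. Alternatives changed merging, read minima, scaling, windows and the libraries included. Python 3.11.15, numpy 2.4.6, scipy 1.17.1, pandas 2.3.3, matplotlib 3.10.9, and edgeR 4.0.16 and DESeq2 1.42.0 (scaling only) in R 4.3.3 were used.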

Additional observations from a re-analysis of the deposited data

Results flagged for a closer look

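Reads on the strand opposite to an annotated ERCC spike-in lie outside the mouse loci and numbered 231 of 26923 spike-in reads in replicate 1 (0.858%, 95% Wilson interval 0.755% to 0.975%) and 162 of 15688 in replicate 2 (1.03%, 0.886% to 1.20%). All came from 4 spike-ins in replicate 1 and 5 in replicate 2, and each of these had 0 reads on its annotated strand. ERCC-00009 held 158 of them in replicate 1 and 114 in replicate 2, and ERCC-00116 held 68 and 43.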

How the results depend on the processing

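No paired analysis was possible because both libraries belong to 1 group. Of 2172 loci, 817 had 2 or more reads in each library, 231 had 5 or more, and models of 2 or more reads gave 794. A single library gave 5293 to 6180 loci, an antisense share of 1.42% to 1.60%, a share reaching the 3′ end of 6.47% to 6.57% and a share on exons of 53.8% to 54.2%. At a minimum of 100 reads 3 of 20 loci were called different. Loci reaching the 3′ end were 13.2% with the ends of transcripts that had reads, and 23.8% at 5 or more reads. Loci on exons were 53.7% at 50 bases or more, 26.5% at 50% of the locus or more and 83.1% at 5 or more reads. With any difference in share 7 pairs were called. The polyadenylation signal was found in 5.02% with AATAAA only, 4.55% in the last 30 bases, 15.3% in the last 100 and 5.92% at 5 or more reads. A-rich ends were 45.9% at 10 A, 37.0% at 15 A and 55.9% at 5 or more reads. The cause of these shifts was not tested. Merging at 50% overlap, TMM, DESeq2 size factors and leaving out mitochondrial genes changed no call count by over 1.5 times. Chosen after seeing the data, leaving out the loci opposite Klhl31, Gm26917 and CT010467.1 gave antisense shares of 1.21% in replicate 1 and 1.31% in replicate 2, and the end of the model with most reads gave 9.23% for the signal and 42.6% for A-rich ends. Depth limits the test between libraries to 128 of 2172 loci.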
